A study of Homo sapiens with 4 samples.

Results

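FOXK2 binding at the cytosolic ribosomal protein genes was examined in the peak lists of 2 biological replicates of FOXK2 chromatin immunoprecipitation from OVCAR5 cells. The genes were taken by name, as every gene whose symbol in the peak lists has the form of RPL or RPS with a number and at most a closing A, X or L, together with RPLP0, RPLP1, RPLP2 and RPSA. Of 20052 protein-coding genes in the RefSeq table, 81 fit these names. They comprised 46 genes of the large subunit, 31 genes of the small subunit and the 4 paralogs RPL3L, RPL10L, RPL39L and RPS27L. In replicate 1, 43 of 12471 peaks were assigned to 37 of the 81 genes, and in replicate 2, 70 of 27281 peaks were assigned to 49 of them. These 37 genes were 45.7% of the 81 (Wilson 95% interval 35.3% to 56.5%), against 31.3% of all protein-coding genes in replicate 1, and the 49 were 60.5% (49.6% to 70.4%), against 51.6% in replicate 2, which lay within the interval.

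OVCAR5, written OVCAR-5 in the sample labels, is an established human ovarian cancer cell line, which the labels describe as high grade serous. Both samples were immunoprecipitated with an antibody to FOXK2 from cells in standard culture, with no other treatment or genotype named, so there was a single group of 2 replicates and no comparison between conditions. The input libraries were not analysed here. Each list gives, for each peak, its position on hg38, a score, a focus ratio, an annotation class and the signed distance to the nearest transcription start site (TSS), where a negative distance is upstream.

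The cytosolic ribosome translates the cell's messenger RNA. Its small subunit reads the message, its large subunit joins the amino acids, and the ribosomal proteins are made in near-equal amounts, each mostly from a single gene whose transcript commonly starts with a C followed by a run of pyrimidines, the terminal oligopyrimidine (TOP) motif. Each of these genes also has processed pseudogenes elsewhere in the genome that resemble its exons, and how reads shared with them affected peaks in exons was not tested. FOXK2 is a forkhead transcription factor whose family recognises the heptamer TGTTTAC.

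The stretches shared by both replicates' peaks at the promoters of RPS13 and RPL19 are shown first, as examples of high-scoring promoter peaks without the exact forkhead heptamer, which most promoter peaks of these lists also lack. Both stretches are hg38 reference sequence and read on the strand of the gene. The stretch of RPS13 is chr11:17077729-17077939 on the minus strand, and that of RPL19 is chr17:39200092-39200282 on the plus strand. Relative to the canonical GENCODE start, their centres lie at -167 and -96 bp. Capitals mark the GC box GGGCGG in RPS13. RPL19 does not hold it and has no capitals.
RPS13: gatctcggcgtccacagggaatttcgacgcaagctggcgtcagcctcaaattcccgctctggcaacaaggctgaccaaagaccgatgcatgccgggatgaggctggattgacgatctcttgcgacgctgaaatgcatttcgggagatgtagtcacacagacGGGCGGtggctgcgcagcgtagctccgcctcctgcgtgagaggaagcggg
RPL19: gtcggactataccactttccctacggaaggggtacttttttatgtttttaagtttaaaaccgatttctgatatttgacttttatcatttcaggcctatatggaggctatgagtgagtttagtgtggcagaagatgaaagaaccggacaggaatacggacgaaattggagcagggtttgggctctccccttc

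Short stretches of 30 bases around a forkhead form, on the strand where it reads as TGTTTNC, are given for 4 further genes to show the sites nearest to the centre of their best shared peak, with the form in capitals. RPS27L is shown at chr15:63157375-63157404 on the minus strand, centred 87 bp downstream of the canonical start. RPL14 is shown at chr3:40457187-40457216 on the plus strand, at -138 bp from the canonical start, with T in place of A in the heptamer. RPS29 is shown at chr14:48983408-48983437 and RPL10L at chr14:46572492-46572521, both on the plus strand in intergenic sequence far from the genes to which the peaks were assigned.
RPS27L: tgcctgtgagtTGTTTACatcgggctccgg
RPL14: cgactccgccaTGTTTTCccagtgagcttg
RPS29: atagctccagcTGTTTACaattcagtttag
RPL10L: atgaacttcttTGTTTACcttataatatct

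FOXK2 peaks were found in both replicates at 31 of the 81 genes (38.3%, Wilson 95% interval 28.4% to 49.2%), against a background of 28.6% of all protein-coding genes, which lay within that interval. A further 6 genes had an assigned peak only in replicate 1, 18 only in replicate 2, and 26 in neither. A peak in either replicate was at 55 genes (67.9%, 57.1% to 77.1%), against 54.3% of all protein-coding genes. Background shares for a peak in a single replicate only were not counted, so the 6 and 18 are not read further. Promoters are the annotation class that runs from 1000 bp upstream to 100 bp downstream of a TSS. A promoter peak was present in both replicates at 24 of the 81 genes (29.6%, 20.8% to 40.3%), against 9.30% of all protein-coding genes, which lay below that interval. In the single lists, 30 genes had a promoter peak in replicate 1 (37.0%, against 11.9% of all protein-coding genes) and 37 in replicate 2 (45.7%, against 21.2%).

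The peaks of these genes lay close to the TSS more often than peaks in general. In replicate 1, 69.8% of their 43 peaks were in the promoter class, against 21.7% of all peaks, and in replicate 2, 54.3% of 70 were, against 18.0%. Peaks more than 10000 bp from the TSS made up 23.3% of the genes' peaks in replicate 1 and 32.9% in replicate 2, against 57.1% and 62.1% of all peaks. Among promoter peaks, the median distance was -83 bp in replicate 1 and -63.5 bp in replicate 2, against -49 and -48 bp for all promoter peaks. Upstream peaks made up 26 of 30 promoter peaks in replicate 1 (86.7%, against 66.6% of all promoter peaks) and 27 of 38 in replicate 2 (71.1%, against 66.3%). The upstream share of replicate 2 was thus close to that of all promoter peaks.

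Because an annotated peak is given to its nearest TSS, a promoter shared with a neighbouring gene can lose its peak to that gene. Promoters were therefore also read by position, from any GENCODE transcript start, whatever gene the peak was given to. By this count 37 genes had a promoter peak in replicate 1 (45.7%, against 18.0% of 19134 protein-coding genes), 48 in replicate 2 (59.3%, against 31.4%) and 32 in both (39.5%, 29.6% to 50.4%, against 15.0%). The 8 genes added in both were RPL18, RPL35, RPL36, RPL4, RPL7A, RPS18, RPS27L and RPS29. Neither an assigned peak nor a promoter peak by position was present in either replicate at 19 genes. No such count was made over all protein-coding genes, so the 19 is not read further. The peak over RPL4, which encodes a large subunit protein lining the exit tunnel, was given to ZWILCH and stood at the 88.1 score percentile in replicate 1 and the 95.6 percentile in replicate 2. The peak over RPS18, a small subunit gene, was given to VPS52 and stood at percentiles 92.0 and 92.9. The peak over RPL7A was given to MED22 and stood at percentiles 30.8 and 46.9. At RPL36 and RPS29 the peaks, given to HSD11B1L and LRR1, lay at alternative starts and not at the canonical ones, with percentiles 3.87 and 34.8 at RPL36 and 90.6 and 94.997 at RPS29.

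A divergent coding gene, one that starts within 1000 bp on the opposite strand, was present at 13 of the 81 genes (16.0%), against 9.50% of all protein-coding genes. The share with a promoter peak in both replicates by position was 38.5% of these 13 and 39.7% of the other 68. Over all protein-coding genes the same shares were 32.5% and 13.2%. The shares of the ribosomal protein genes were thus close to each other, on 13 genes with a neighbour.

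Scores were compared only as percentiles within each list, where 100 is the highest score, because they are scaled to each library. Of the genes' peaks, 34 formed pairs that overlapped between replicates by at least 1 bp, 25 of them promoter pairs. Among the replicate 1 peaks, 34 of 43 overlapped a replicate 2 peak (79.1%), against 74.9% of all peaks, and 32 of 70 replicate 2 peaks overlapped a replicate 1 peak (45.7%), against 34.2%. For promoter peaks these shares were 25 of 30 (83.3%) against 79.1%, and 23 of 38 (60.5%) against 43.9%. In replicate 1 both shares were near the background. At 28 genes (34.6%), overlapping peaks were assigned to the gene itself in both replicates, against 25.5% of all protein-coding genes, which lay within the interval of 25.1% to 45.4%. Centres of the 34 pairs lay a median of 29.5 bp apart.

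Promoter peaks of ribosomal protein genes were of moderate rank. Their median score percentile was 69.7 in replicate 1 and 68.9 in replicate 2, against 59.7 and 64.1 for all promoter peaks. The middle 50% of the genes' promoter peaks spanned percentiles 34.8 to 80.2 in replicate 1 and 40.6 to 90.1 in replicate 2, a wide range in either list. The highest-scoring 10% of the list held 4 of the 30 promoter peaks in replicate 1 (13.3%, against 16.0% of all promoter peaks) and 10 of the 38 in replicate 2 (26.3%, 15.0% to 42.0%, against 17.2%).

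**Figure D1:**
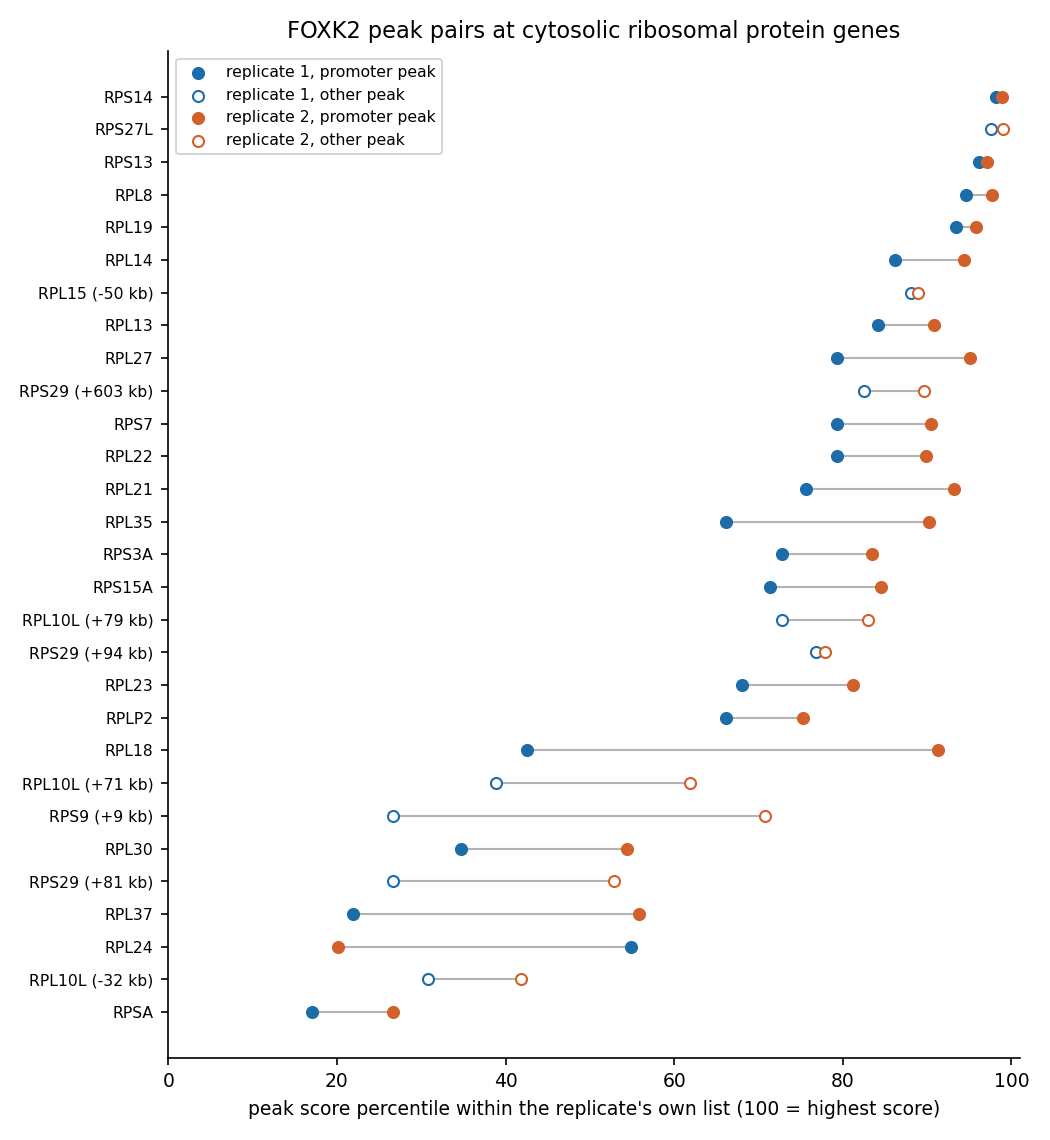
Score percentile of FOXK2 peak pairs within their own list (x axis, 100 is the highest score) for replicate 1 (blue) and replicate 2 (orange), with a row per pair; filled points are promoter peaks, open points other peaks, with distance in kb given where it exceeds 1 kb. RPS14, RPS27L, RPS13, RPL8 and RPL19 stand above the 93 percentile in both replicates, whereas RPL24 is the only pair shown with the lower percentile in replicate 2.

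The best shared peak was at RPS14, which encodes a small subunit protein whose haploinsufficiency is linked to a form of myelodysplastic syndrome. It had score 21.7 at rank 227 (percentile 98.2) in replicate 1 and score 37.9 at rank 302 (98.9) in replicate 2, centred 325 and 340 bp upstream of the TSS. RPS27L, a paralog of RPS27, followed with score 19.6 at rank 299 (97.6) and score 39.6 at rank 263 (99.0). Its peak lay 124 and 189 bp downstream of the TSS, in the 5′ UTR and intron classes rather than the promoter class. Of the 4 paralogs, RPS27L alone had a shared peak within 10000 bp of its TSS.

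RPS13, a small subunit gene, had score 16.4 at rank 465 (96.2) in replicate 1 and score 26.3 at rank 772 (97.2) in replicate 2, at -161 and -159 bp. RPL8, whose protein lies near the peptidyl transferase centre, had score 14.5 at rank 651 (94.6) and score 28.1 at rank 638 (97.6), at -2 and -20 bp. The centres of its peaks lay 75 bp apart, so these distances refer to different annotated starts. RPL19, which encodes a large subunit protein, had score 13.6 at rank 813 (93.4) and score 22.6 at rank 1133 (95.8), at -106 and -63 bp. These 5 genes had the best mean percentiles of all shared pairs.

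Among pairs with a peak assigned to the gene, the next best were a step lower. Pairs given in both replicates to a neighbour, as at RPL4, RPS18 and RPS29 above, were not ranked here. RPL14, a large subunit gene, had score 10.4 at rank 1682 (86.2) and score 20.2 at rank 1516 (94.4), at -80 and -90 bp. RPL15, a large subunit gene mutated in some cases of Diamond-Blackfan anaemia, had its pair in an intron 50425 and 50338 bp upstream of the TSS, with score 10.9 at rank 1439 (88.1) and score 15.6 at rank 2990 (88.9). RPL13, of the large subunit, had score 9.81 at rank 1915 (84.2) and score 17.0 at rank 2469 (90.9), at -55 and -49 bp. RPL15 was the only gene of these 8 whose pair was far from its TSS, and no measurement here ties that pair to RPL15. Promoter pairs of intermediate rank followed, among them RPL27 at percentiles 79.3 and 95.1, RPS7, whose protein binds MDM2, at 79.3 and 90.4, and RPL22, a large subunit gene mutated in some cancers, at 79.3 and 89.8. RPL21 stood at 75.6 and 93.2, and RPS3A at 72.8 and 83.4.

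Replicate 2 gave the higher percentile in 33 of the 34 pairs, as in 89.4% of all peak pairs of the series. The lists hold 12471 and 27281 peaks, so a peak of similar rank stands at a higher percentile in replicate 2. RPS14, at ranks 227 and 302, is an example. The gaps are therefore not a measure of a change in binding between the replicates. Their size varied. RPS14 and RPS13 differed by less than 1 percentile unit, whereas RPL18, whose replicate 2 peak was given to SPHK2, stood at 42.6 in replicate 1 and 91.2 in replicate 2. RPL24 ran the other way, at 54.9 in replicate 1 and 20.1 in replicate 2. With 2 replicates, the level of such a peak was not fixed beyond these ranges.

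The promoter peaks present in both replicates covered both subunits. They were at 13 of 46 large subunit genes (28.3%, Wilson 95% interval 17.3% to 42.5%) and 11 of 31 small subunit genes (35.5%), and the interval of the first share included the second. The large subunit genes included RPL8, RPL13, RPL14, RPL19, RPL21, RPL22, RPL23, RPL24, RPL27, RPL30, RPL37 and RPLP2. The small subunit genes included RPS3A, RPS7, RPS13, RPS14, RPS15A, RPS26 and RPSA. At RPS26, the promoter peaks of replicates 1 and 2, at -251 and +16 bp, did not overlap, and at RPLP2 they shared only 2 bp.

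Promoter peaks seen in a single replicate covered a wide range of scores. Those of RPL3, RPL32 and RPL34 in replicate 1 stood at percentiles 17.0, 7.55 and 3.87. RPL31 had a promoter peak at percentile 80.5 in replicate 1 and only intronic peaks in replicate 2. In replicate 2 alone, promoter peaks were assigned to RPL6, RPL9, RPL10, RPL11, RPL23A, RPL29, RPS10, RPS12, RPS16, RPS21, RPS24, RPS27 and RPS29, from percentile 1.22 at RPS10 to 82.2 at RPS29.

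Several well-studied members had no peak. RPL5 and RPL11 bind 5S ribosomal RNA in a particle that restrains MDM2. RPL5 had no assigned peak in either replicate, and RPL11 had a promoter peak at percentile 16.1 in replicate 2 only. RPS6, the substrate of S6 kinase, and RPS19, the gene most often mutated in Diamond-Blackfan anaemia, had none. Of the stalk genes, whose proteins recruit elongation factors, RPLP0 had none, RPLP1 had a distant peak in replicate 2 only, and RPLP2 had promoter peaks at percentiles 66.1 and 75.3. RPSA, which encodes a small subunit protein also described as a laminin receptor, had weak promoter peaks at percentiles 17.0 and 26.7. Of 12 listed Diamond-Blackfan anaemia genes, 3 had a promoter peak in both replicates, RPS7 and RPS26 among them (3 of 12, with an interval of 8.89% to 53.2%, against 9.30% of all protein-coding genes). In replicate 1 alone the count was also 3 of 12, against 11.9%, within the same interval. In replicate 2, 7 of the 12 had one (58.3%, 32.0% to 80.7%, against 21.2%). The replicate 2 share of all 81 genes, 45.7%, lay within that interval. The weakest listed peak had score 3.02 in replicate 1 and 3.12 in replicate 2. Weaker binding at the genes without a peak could therefore not be read from these lists. Whether depth or a filter set these limits was not tested.

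**Figure D2:**
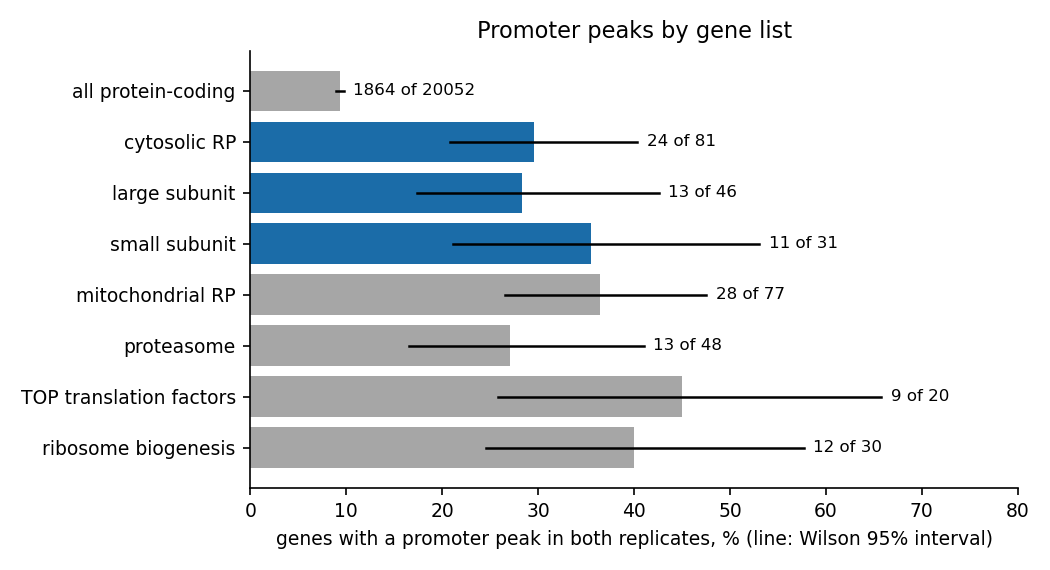
Share of genes whose promoter held a peak in each replicate (x axis, percent) for all protein-coding genes, the cytosolic ribosomal protein (RP) genes, their subunits (blue) and 4 further lists (grey), with Wilson 95% intervals as lines and counts beside them. The cytosolic ribosomal protein genes stand at 29.6%, among the other lists at 27.1% to 45.0% and above all protein-coding genes at 9.30%.

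The share of 29.6% was not particular to the cytosolic ribosome. Promoter peaks in both replicates were present at 28 of 77 mitochondrial ribosomal protein genes (36.4%), which serve the separate ribosome of that organelle, and at 13 of 48 proteasome subunit genes (27.1%), which encode the protease for ubiquitinated proteins. Both shares lie within the interval of the cytosolic genes. Peak positions differed, with no test of the difference: promoter peaks of mitochondrial ribosomal protein genes had median distances of 18 and 0 bp in the 2 lists, and those of proteasome genes -27 and -14.5 bp, against -83 and -63.5 bp at the cytosolic ribosomal protein genes.

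The exact heptamer TGTTTAC, read on either strand in windows of 100 bp to each side of a peak's centre, was rare in the promoter peaks of ribosomal protein genes. It was in 1 of 30 promoter peaks in replicate 1 (3.33%, Wilson 95% interval 0.591% to 16.7%), against 14.4% of all promoter peaks, and in 1 of 38 in replicate 2 (2.63%, 0.466% to 13.5%), against 10.9%. The background lay within the interval in both replicates, so in these windows the shortfall was within counting error. Within 50 bp of the centre the count of replicate 2 was 0 of 38 (0% to 9.18%), against 9.45% of all promoter peaks, just outside the interval. The background was within the interval in the other windows, with 1 of 30 in replicate 1 within 50 bp (against 11.9%) and, within 250 bp, 1 of 30 in replicate 1 (0.591% to 16.7%, against 16.6%) and 2 of 38 in replicate 2 (1.46% to 17.3%, against 13.0%).

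The heptamer was also infrequent among high-scoring promoter peaks. Among promoter peaks with a score percentile of at least 50 in their list, those of ribosomal protein genes held it in 1 of 20 (5.00%) in replicate 1 and 1 of 27 (3.70%) in replicate 2, against 19.2% and 13.6% of all such promoter peaks, both within the intervals of the genes' shares (0.888% to 23.6% and 0.657% to 18.3%). None of the promoter peaks of RPS14, RPS13, RPL8 or RPL19 held it, in either replicate. In RefSeq promoter sequence (GRCh38.p14, from 250 bases before to 50 after the start), 64 of the 81 genes were matched and none of them held TGTTTAC, which allows a share of up to 4.69%, against 2.61% of 15842 protein-coding genes.

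Outside promoters the heptamer was common in the peaks assigned to these genes. It was in 6 of 13 such peaks in replicate 1 (46.2%), against 35.0% of all peaks outside promoters, and in 12 of 32 in replicate 2 (37.5%), against 32.0%. The intervals of both shares (23.2% to 70.9% and 22.9% to 54.7%) included the background. The peak of RPS27L held it 28 bp from the centre in replicate 1 and 37 bp in replicate 2. Many of the rest were at RPS29 and RPL10L. The peak assigned to RPS29 at 602985 bp stood at percentiles 82.5 and 89.6, and that at 94147 bp at 76.9 and 77.9. The peak assigned to RPL10L, a paralog expressed mainly in testis, at 79349 bp stood at 72.8 and 83.0. These 3 peaks held the heptamer in both replicates, and the sites of the first and the last are those printed above. RPS29 and RPL10L were the nearest annotated TSS in gene-poor sequence of chromosome 14, and no measurement here ties the peaks to the genes. A further peak assigned to RPL21, at percentile 0.394 in replicate 2, lay on chromosome 10, whereas RPL21 is on chromosome 13.

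**Figure D3:**
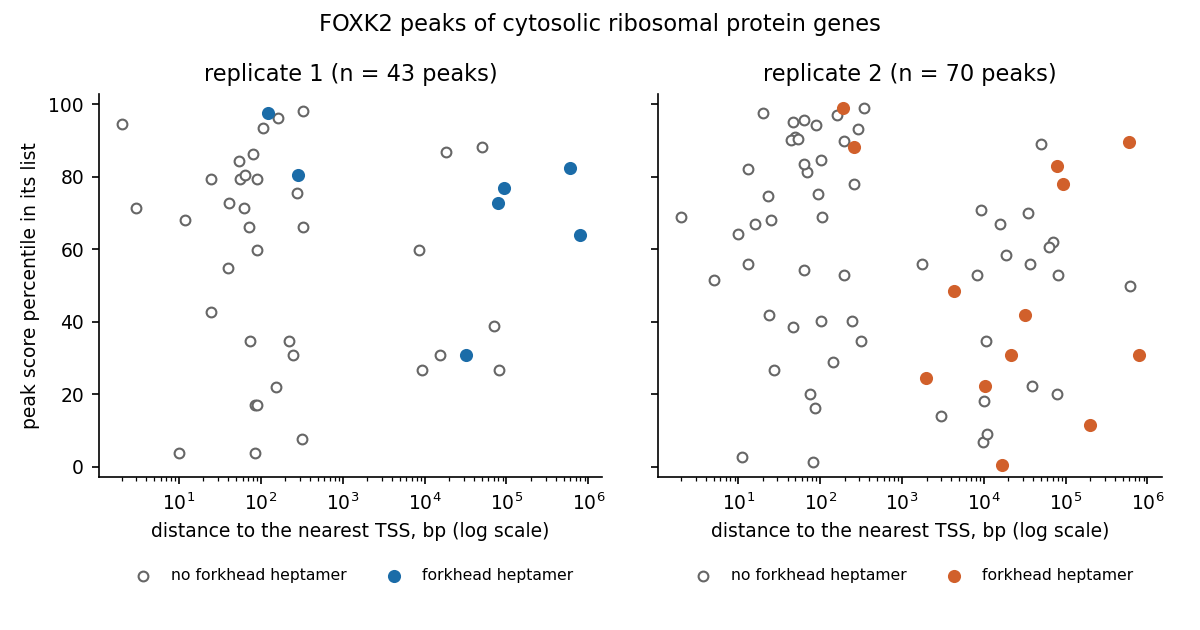
Score percentile of every peak assigned to a cytosolic ribosomal protein gene (y axis) against its distance from the nearest TSS in bp (x axis, log scale), in replicate 1 (43 peaks) and replicate 2 (70 peaks); filled points hold the exact forkhead heptamer within 100 bp of the centre. Within 1000 bp of the TSS there are few filled points, RPS27L with the highest percentile among them, and the others lie farther out.

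A looser form of the forkhead site, TGTTTNC, was not scarce within 100 bp of the centre. It was in 9 of 30 promoter peaks in replicate 1 (30.0%), against 28.1% of all promoter peaks, and in 10 of 38 in replicate 2 (26.3%), against 22.8%. Of its forms, TGTTTCC was in 4 of 30 (13.3%, 5.31% to 29.7%) and 6 of 38 (15.8%, 7.44% to 30.4%), against 7.68% and 5.97% of all promoter peaks, and RPL8 and RPS7 were among the genes that held it in both replicates. TGTTTTC was in 10.0% and 5.26%, against 5.65% and 5.17%, and TGTTTGC in 3.33% and 2.63%, against 2.58% and 2.83%. In RPL8, TGTTTCC lay 2 bp from the centre in replicate 1 and 73 bp in replicate 2. RPL14 held TGTTTTC 11 bp from the centre in replicate 1 and 1 bp in replicate 2, in the stretch shown above. These counts are small.

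Letters recognised by other factors were searched in the same windows, on both strands. CCGGAAG, a site of ETS factors, was in 33.3% of the genes' promoter peaks in replicate 1 and 28.9% in replicate 2, against 18.0% and 18.3% of all promoter peaks. The interval of replicate 1 (19.2% to 51.2%) did not include its background, whereas that of replicate 2 (17.0% to 44.8%) did. In replicate 1 the background was within the interval in windows of 50 bp (9.51% to 37.3%, against 10.7%) and 250 bp (24.6% to 57.7%, against 26.8%) and among promoter peaks with a score percentile of at least 50 (14.5% to 51.9%, against 18.0%). In RefSeq promoters CCGGAAG was in 34.4% of the 64 matched genes, against 14.2% of all protein-coding genes, and in 28.6% of the 14 with a promoter peak in both lists. RPL8, RPL21, RPL30, RPLP2 and RPS3A were among the genes that held it in both replicates. AAGATGGC, a site of YY1, was in 3 peaks of each replicate (10.0%, 3.46% to 25.6%, against 3.21%, and 7.89%, 2.72% to 20.8%, against 3.34%). Within 50 bp of the centre it was in none. RPL24 was among the genes that held it in both replicates within 100 bp. GGGCGG, the GC box of SP and KLF factors, was in 63.3% and 57.9%, against 52.9% and 53.7%.

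Further motifs were found in few of these peaks, and their backgrounds lay within the intervals of the genes' shares. CACGTG, the E-box, was in 1 peak of each replicate (3.33% and 2.63%), at RPL23, against 10.7% and 10.1%. TGANTCA, the AP-1 site, was in none of the 30 and 38 promoter peaks, against 4.76% and 4.46%. The palindrome CTCGCGAG was in 1 peak of replicate 1, at RPS7 (3.33%, against 1.29% of all promoter peaks), and in none of replicate 2 (against 1.51%). In RefSeq promoters it was in 6 of 64 matched genes (9.38%), against 1.53% of all protein-coding genes. It was in none of the 14 with a promoter peak in both lists, which allows a share of up to 21.4%. Every TGTTTAC is also a TGTTTNC, and no other motif searched contains another. The windows had a median GC content of 59.7% in replicate 1 and 60.4% in replicate 2, against 63.2% and 63.7% for all promoter peaks, and its part in the motif shares was not tested.

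**Figure D4:**
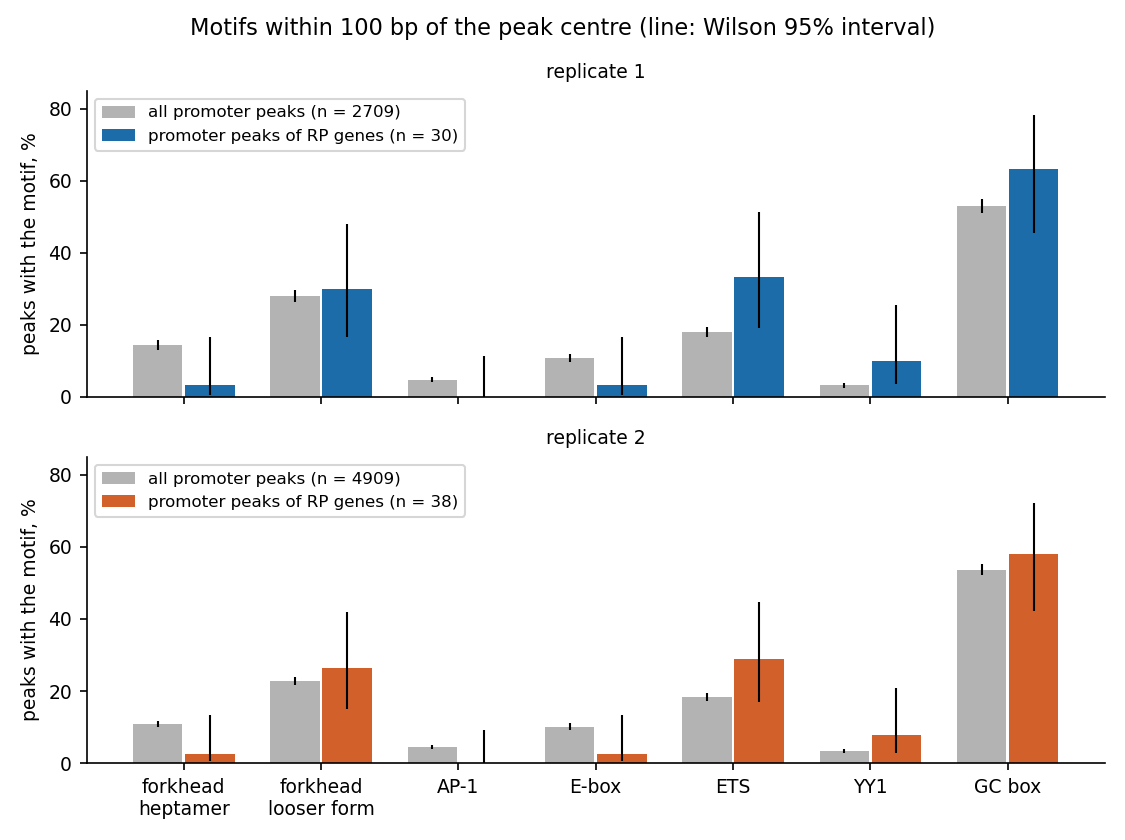
Share of promoter peaks with each motif within 100 bp of the centre (y axis, percent) in replicate 1 (top) and replicate 2 (bottom), for all promoter peaks (grey) and those of ribosomal protein (RP) genes (coloured), with Wilson 95% intervals as lines. The exact forkhead heptamer stands at 3.33% and 2.63% at ribosomal protein genes and the looser form at 30.0% and 26.3%.

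The TOP letters were about as frequent at genes with a FOXK2 peak of the promoter class as at genes without such a peak. A C followed by at least 4 pyrimidines stood at the RefSeq start of 42 of 64 matched genes (65.6%), against 4.60% of all protein-coding genes. The letters were at 9 of 14 matched genes with a peak of the promoter class in each replicate (64.3%). They were at 22 of 32 without a peak of that class in either (68.8%). Genes of the second group could still hold a peak elsewhere or a promoter peak given to a neighbour.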

How the data were processed

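The analysis started from the deposited FOXK2 peak lists of OVCAR5 cells, 1 list for each of 2 biological replicates. Per the study's methods and the labels, the authors mapped single-end reads to hg38 with Bowtie2 2.2.6, called peaks in each replicate with HOMER 4.10 (210 bp wide in replicate 1 and 256 bp in replicate 2) and annotated them to the nearest TSS. The deposited score is HOMER's peak score, scaled to each library, and the deposited focus ratio, a fraction, is the share of tags on the expected side of the peak centre. The study gives target against input statistics for a peak and names DESeq2 for peak statistics, but whether the deposited lists were called or filtered against input is not given in the sources used here.

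Lists were used without a further threshold. Peaks overlapped when they shared at least 1 bp, and scores were ranked within each list. Background genes were 20052 protein-coding symbols of RefSeq GRCh38.p14, and promoters by position came from GENCODE release 44. Motifs were searched in hg38 within 100 bp of the centre. Wilson 95% intervals cover counting error only. A single condition allowed no test, and no enrichment test was run. Members and gene lists were chosen with earlier results of these data known. Named by rule were the genes with overlapping peaks, with full values for the 8 best, every gene with a promoter peak in both replicates, the 4 paralogs, and RPS6, RPL5, RPL11, RPSA, RPLP0, RPLP1, RPLP2 and RPS19. RPL4, RPS18, RPL31 and the other genes with a peak in 1 replicate, or with a peak given to a neighbour, were named after their values were seen. Results for a few genes and sequences are not reported here.

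Peak overlap and motif search were first tested on simulated data in which the answers were known. Alternatives tried were lists of equal length, the higher-scoring part of each list, limits on distance, overlap and motif window, the looser motif, lists without the paralogs, and each replicate alone. Tools were Python 3.11.15, samtools 1.23.1, matplotlib 3.10.9, pandas 2.3.3, statsmodels 0.14.6, numpy 2.4.6 and pysam 0.24.0.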

Additional observations from a re-analysis of the deposited data

How the results depend on the processing

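Of 53 values under other settings, 45 stayed within 1.5 times the main count or within the interval of the main share, and 8 moved. A peak in both replicates was present at 31 genes, against 55 with a peak in either, and leaving out a replicate gave 37 to 49. Of all protein-coding genes, 28.6% had a peak in both, 54.3% in either, 31.3% in replicate 1 and 51.6% in replicate 2, against 38.3%, 67.9%, 45.7% and 60.5% of these genes. Genes with a promoter peak in both numbered 24, and leaving out a replicate gave 30 to 37. With lists of equal length, 68.4% of the genes' replicate 2 peaks overlapped replicate 1, and with promoter peaks only, 60.5%, against 45.7%. With full lists, the share was 34.2% of all replicate 2 peaks and 43.9% of all its promoter peaks. It was not counted over all peaks for lists of equal length, so the 68.4% has no background and is not read as a trait of these genes. The heptamer share in promoter peaks rose to 30.0% in replicate 1 and 26.3% in replicate 2 with the looser form TGTTTNC, and fell to 0% in replicate 2 within 50 bp of the centre, where the interval (0% to 9.18%) no longer included the background of 9.45%. The replicate 1 excess of CCGGAAG in promoter peaks was past its background only in windows of 100 bp. Leaving out a replicate does not apply to shares within 1 list. No paired analysis was possible because the results come from no test and there is a single group. The 30 and 38 promoter peaks leave wide intervals, and the shorter list of replicate 1 limits every count over both replicates.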

Other observations

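Genes that work beside the ribosomal proteins were also read. Among 20 genes for translation factors and related proteins with TOP messages, 9 had a promoter peak in both replicates (45.0%), and among 30 ribosome biogenesis factors 12 did (40.0%), against 9.30% of all protein-coding genes. EEF1D, a subunit of the exchange factor of elongation factor 1, had a promoter peak at percentile 98.8 in replicate 1 and 99.0 in replicate 2. NOP56, a core protein of the particles that methylate ribosomal RNA, stood at 95.4 and 98.0, and its best peak lay 2 and 24 bp upstream of the TSS. RRP12, needed for export of the subunits, stood at 95.7 and 96.6, and SBDS, which helps release a factor that blocks subunit joining, at 92.9 and 95.3. None of these promoter peaks held TGTTTAC. PES1, a large subunit assembly factor, had its best peak in an intron at 97.0 and 98.3, and it held the heptamer in both replicates.

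Of 6 ribosomal protein genes and paralogs outside the name rule, none had a promoter peak in both replicates (0% to 39.0%, against 9.30% of all protein-coding genes), and 2 did when promoters were read by position (33.3%, 9.68% to 70.0%, against 15.0%). Both backgrounds were within the intervals. RPL22L1, a paralog of RPL22, had the best pair of peaks, at percentiles 96.7 and 98.1, 67477 and 67400 bp from its TSS. Among mitochondrial ribosomal protein genes, MRPL36 had a promoter peak at percentiles 96.5 and 97.9 that held TGTTTAC in both replicates. The heptamer was in 2 of 37 mitochondrial ribosomal promoter peaks in replicate 1 and 2 of 41 in replicate 2, and in none of the 15 and 26 proteasome promoter peaks.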
